A study of Mus musculus with 7 samples.

Results

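Cxcl1, Cxcl2, Cxcl3 and Cxcl5 are the mouse CXC chemokines best known for drawing neutrophils. They were chosen by gene symbol, 4 of the 48440 genes in the table of the LPS experiment and 4 of the 55352 genes in the table of the AAV experiment. RNA-seq was performed on bone-marrow-derived macrophages (BMDMs), which were grown from C57BL/6 marrow in M-CSF, the cytokine that drives macrophage differentiation. In the LPS experiment, WT BMDMs were left without treatment (0 h) or received 100 ng per mL LPS, a bacterial cell-wall lipid that signals through TLR4, for 2 h or 4 h, and each time point is a single library. In the AAV experiment, BMDMs were transduced for 48 h with AAV-GFP (labelled WT) or with AAV-Shisa3 (labelled Shisa3 overexpression), with 2 samples per group. Both vectors were serotype AAV1 and drove their insert from the CAG promoter, which is active in most cell types, so that AAV-GFP carries the virus and the promoter without Shisa3. The labels do not say whether the 2 samples of a group came from separate cultures or mice, so the p-values below measure only the spread between these samples, which may be technical.

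All 4 proteins are secreted, share the glutamate-leucine-arginine motif ahead of the CXC cysteines, and bind CXCR2 on neutrophils. Macrophages keep their genes nearly silent at rest and switch them on within hours of TLR4 engagement through NF-κB, and AU-rich elements in the 3′ UTRs of such transcripts mark short-lived mRNAs for decay by proteins such as tristetraprolin (Zfp36). Cxcl5 is known mainly from epithelial cells, and Cxcl1 to Cxcl3 from macrophages as well as other cells.

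The genes lie in 1 cluster on the plus strand of chromosome 5 in the GENCODE M21 annotation of GRCm38. Cxcl5 (ENSMUSG00000029371.7) is at chr5:90759360-90761624, Cxcl3 (ENSMUSG00000029379.10) at chr5:90786103-90789600, Cxcl1 (ENSMUSG00000029380.11) at chr5:90891241-90893115 and Cxcl2 (ENSMUSG00000058427.10) at chr5:90903871-90905938. The cluster spans 146579 bp, with 10755 bp between Cxcl1 and Cxcl2. Each principal transcript has 4 exons. The coding length is 288 bases in Cxcl1, 300 in Cxcl2 and Cxcl3 and 396 in Cxcl5.

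The promoters are shown because these 3 genes moved together under LPS. RefSeq promoter sequences (GRCm38.p6) were matched for Cxcl1, Cxcl2 and Cxcl3 and not for Cxcl5. The stretches below are on the plus strand and run from 110 bases before the RefSeq start to the base before the first annotated start (for Cxcl2 the GENCODE start lies 28 bases upstream of the RefSeq start, and for Cxcl1 it lies 4 bases upstream). Capitals mark GGGAATTTCCC, the longest run of letters shared by the 3 promoters, and the letters ATAAAAG, which resemble a TATA box.
Cxcl1 promoter, chr5:90891135-90891240: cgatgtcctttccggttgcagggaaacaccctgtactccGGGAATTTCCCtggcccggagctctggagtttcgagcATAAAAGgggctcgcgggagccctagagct
Cxcl2 promoter, chr5:90903789-90903870: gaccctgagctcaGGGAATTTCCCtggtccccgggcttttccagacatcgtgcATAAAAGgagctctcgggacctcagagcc
Cxcl3 promoter, chr5:90785991-90786100: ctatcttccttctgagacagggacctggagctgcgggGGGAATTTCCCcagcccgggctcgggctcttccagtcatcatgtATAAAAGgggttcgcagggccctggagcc
The shared run lies 71 to 61 bases before the RefSeq start in Cxcl1, 97 to 87 bases before it in Cxcl2 and 73 to 63 bases before it in Cxcl3. Searched on both strands over the 250 bases before each start, it was held by 14 of 32851 promoters, or 0.0426%, and since it was picked as the run that these promoters share, that share is only a description. It overlaps a match to the NF-κB consensus on each strand, which 3.90% of all promoters hold. ATAAAAG was held by 4.83% of promoters. The AP-1 letters TGANTCA were held by 6.75% of promoters and were not in these 3 windows. A match is a run of letters and not a measured binding site.

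The 3′ UTRs are shown for the AU-rich pentamer ATTTA. Its part in the levels of these genes was not tested. Each stretch of 30 bases is the one with the most pentamers in the gene's 3′ UTR in GENCODE M21, on the plus strand, with the pentamers in capitals.
Cxcl1 3′ UTR, bases 79 to 108 after the stop codon: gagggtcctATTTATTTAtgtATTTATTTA
Cxcl2 3′ UTR, bases 123 to 152: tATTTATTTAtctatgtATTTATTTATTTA
Cxcl3 3′ UTR, bases 181 to 210: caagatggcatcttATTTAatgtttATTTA
Cxcl5 3′ UTR, bases 121 to 150: agcttcctgctcatctcacaagtgtATTTA
In the first 500 bases of the 3′ UTR, Cxcl1 held 7 pentamers, a number reached by 0.188% of the 13303 genes with a 3′ UTR of that length. Cxcl2 held 8, reached by 0.0752%. Cxcl3 held 3, reached by 9.02%, and Cxcl5 held 1, reached by 50.0%. The longer element TTATTTATT, present in 2.68% of these genes, occurred 2 times in Cxcl1, 3 times in Cxcl2 and 1 time in Cxcl3 and was not in that window of Cxcl5.

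The genes are also close in coding sequence. Cxcl2 and Cxcl3 shared 89.8% of their aligned coding bases and a run of 110 identical bases between their transcripts, against a read length of 150 bases. Cxcl1 shared 75.9% with Cxcl2 and 72.6% with Cxcl3, with no identical run longer than 23 bases. How the authors assigned reads that fit more than 1 gene is not given in the sources used here, so the split between Cxcl2 and Cxcl3 is less certain than the values of Cxcl1 and Cxcl5.

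The recovered reads summed to between 7263258 (2 h) and 32659392 (4 h) per LPS library. The depth of the AAV samples is unknown. Macrophage markers were high in every library and sample, at 16727 to 31598 reads per 1000000 recovered reads (RPM) summed over 6 of 7 markers in the LPS experiment and at 34024 to 37119 TPM summed over 7 in the AAV experiment. Epithelial, T cell and B cell markers each summed to 0.385 RPM or less and 0.27 TPM or less. Of 12 neutrophil markers, 0 were at 0 in any library or sample, but some were near the floor. At 0, 2 and 4 h of LPS, 12, 10 and 11 of them had over 3 reads. In the AAV samples 7 to 10 of them reached 1 TPM.

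The first question was how far and how fast LPS changed the chemokine transcripts. At 2 h, Cxcl1, Cxcl2 and Cxcl3 were each more than 100 times their 0 h value on the authors' scale, and Cxcl2 was by far the most abundant. At 4 h all 3 were lower than at 2 h and still far above 0 h. Cxcl5 stayed at a handful of reads. Each time point is 1 library, so no test was possible, and the 95% intervals given for LPS values cover counting error only. In bulk RNA, fewer cells of a type and less RNA per cell cannot be told apart.

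Cxcl2, a chemokine made in large amounts by activated macrophages, had 70 reads at 0 h, 3124 at 2 h and 6678 at 4 h. Since the 4 h library was the deepest, these correspond to 4.49 (Wilson interval 3.55 to 5.67), 430 (415 to 445) and 204 (200 to 209) RPM. The interval at each time point lay apart from the others, with 2 h highest. On the authors' scale Cxcl2 was 151 times higher at 2 h than at 0 h, with an interval of 120 to 195, and 80.6 times higher at 4 h, with an interval of 63.7 to 104. Scaled by library totals, the ratios were 95.8 and 45.5.

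Cxcl1, the founding ligand of the group in mouse (also called KC), had 4 reads at 0 h, 384 at 2 h and 452 at 4 h, or 0.257 (0.0998 to 0.660), 52.9 (47.8 to 58.4) and 13.8 (12.6 to 15.2) RPM. Its intervals did not overlap between any of the time points. The 2 h value was 326 times that at 0 h (126 to 1202), and the 4 h value was 95.5 times it (37.0 to 352). By library totals these ratios were 206 and 53.9. The 4 reads at 0 h set the width of these intervals.

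Cxcl3, the close relative of Cxcl2, had 1 read at 0 h, 124 at 2 h and 184 at 4 h, or 0.0641 (0.0113 to 0.363), 17.1 (14.3 to 20.4) and 5.63 (4.88 to 6.51) RPM. With a single read at 0 h the interval of its 2 h ratio, 421, ran from 74.2 to 16759, and that of its 4 h ratio, 155, from 27.6 to 6172. By library totals the ratios of Cxcl3 were 266 and 87.8. Its order in time was that of Cxcl1 and Cxcl2.

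Cxcl5 had 4, 2 and 13 reads at 0, 2 and 4 h, or 0.257, 0.275 and 0.398 RPM with overlapping intervals. Its 2 h value was 1.70 times that at 0 h (0.154 to 11.8). The 4 h value was 2.75 times it (0.848 to 11.6), or 1.55 times by library totals (0.479 to 6.53). All these intervals include 1, so a change of Cxcl5 was not detectable at this depth.

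**Figure D1:**
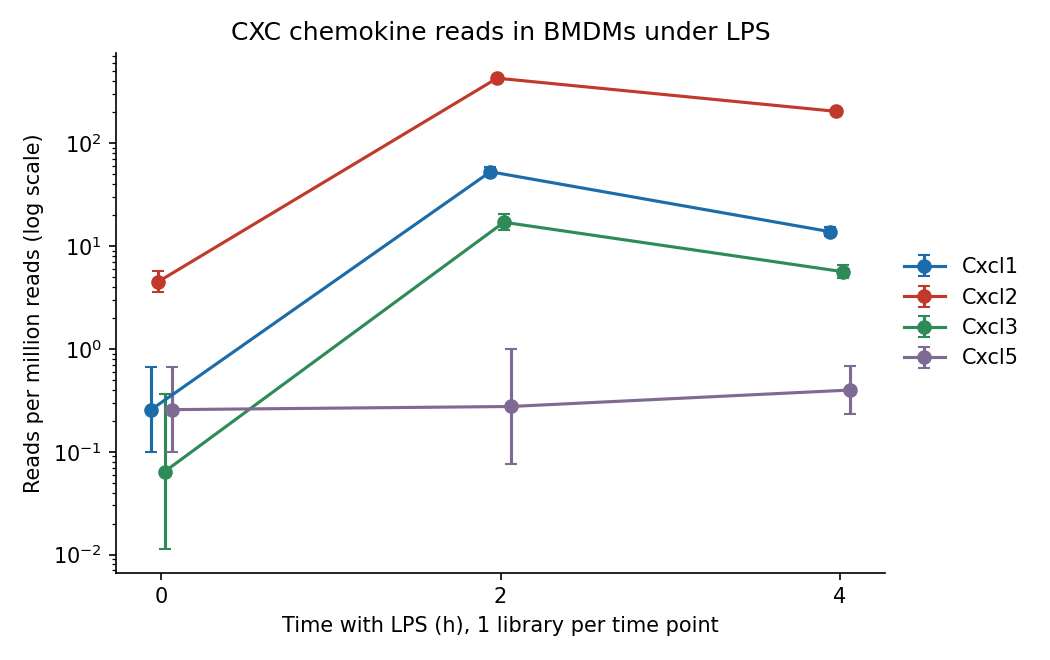
RPM (reads per 1000000 reads, log axis) of the 4 chemokine genes against hours of LPS, with 1 library per time point and bars for the 95% Wilson interval of counting error. Cxcl2, Cxcl1 and Cxcl3 are highest at 2 h, with Cxcl2 at 430, Cxcl1 at 52.9 and Cxcl3 at 17.1, while Cxcl5 stays between 0.257 and 0.398 with overlapping bars.

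The levels plotted against time show the separate course of Cxcl5. On log2(value + 1), the differences from 0 h at 2 h were 7.88 for Cxcl1, 7.37 for Cxcl3, 7.21 for Cxcl2 and 0.59 for Cxcl5. At least a 2-fold higher value at 2 h was seen for 3 of 4 genes, against 20.5% of the 17854 genes compared. At 4 h it was seen for 4 of 4, against 22.2%, where Cxcl5 passed at 1.17 from 4 reads and did not pass when libraries were scaled by their totals. The median log2 difference of the 4 genes was 7.29 at 2 h and 6.03 at 4 h, where the median over all genes compared was -0.05 and -0.04. Both comparisons use the same 0 h library. Among the genes compared, Cxcl1 was 20th in size of rise at 2 h, Cxcl3 32nd and Cxcl2 37th, and at 4 h Cxcl2 was 101st, Cxcl1 109th and Cxcl3 123rd.

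The scaling sets the background but not these directions. By library totals, the median of all genes moved to -0.68 at 2 h and to -0.80 at 4 h. The genes at least 2-fold higher and lower then numbered 2427 and 7068 at 2 h, against 3668 and 4406 on the authors' scale, and 2206 and 7597 at 4 h, against 3958 and 4207. With each library centred on its median they numbered 4808 and 3454 at 2 h, and 5285 and 3036 at 4 h. Over the 6 settings tried, the log2 difference at 2 h was between 6.80 and 8.29 for Cxcl1, between 6.55 and 7.52 for Cxcl2 and between 5.61 and 8.51 for Cxcl3.

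From 2 h to 4 h the level of Cxcl1 was 3.41 times lower, with a ratio of 0.293 (0.255 to 0.336). Cxcl3 was 2.71 times lower, at 0.369 (0.292 to 0.468), and Cxcl2 was 1.88 times lower, at 0.532 (0.510 to 0.555). The Cxcl2 interval did not overlap those of Cxcl1 and Cxcl3, whose own intervals overlapped. At least a 2-fold lower value at 4 h than at 2 h was seen for 2 of 4 genes, Cxcl1 and Cxcl3, against 15.2% of all genes compared, and a 2-fold higher value for 0 of 4, against 17.9%. By library totals the decreases were 3.82, 3.03 and 2.10 times for Cxcl1, Cxcl3 and Cxcl2, so that Cxcl2 also passed the 2-fold line. Cxcl5, with 2 and 13 reads, had a ratio of 1.62 (0.366 to 14.8).

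The unequal decrease also shows in shares within a library, which no scaling can alter. Of the reads assigned to Cxcl1 or Cxcl2, Cxcl1 took 5.41% at 0 h (exact interval 1.49 to 13.3). Its share was 10.9% at 2 h (9.93 to 12.0) and then 6.34% at 4 h (5.78 to 6.93). The share was higher at 2 h than at 4 h beyond counting error. Of the reads assigned to Cxcl3 or Cxcl2, Cxcl3 took 3.82% at 2 h (3.19 to 4.54) and 2.68% at 4 h (2.31 to 3.09), again higher at 2 h. Of those assigned to Cxcl3 or Cxcl1, Cxcl3 took 24.4% (20.7 to 28.4) and 28.9% (25.4 to 32.6), with overlapping intervals.

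Per transcript length (the longest coding transcript of each gene), Cxcl2 made up 83.0% of the summed level of the 4 genes at 0 h, 76.2% at 2 h and 84.4% at 4 h. Cxcl1 made up 9.25%, 18.3% and 11.1%, and Cxcl3 made up 2.17%, 5.53% and 4.26%. The order at 2 h and 4 h was thus from Cxcl2 over Cxcl1 to Cxcl3. At 0 h Cxcl2 was highest as well, while Cxcl1, Cxcl3 and Cxcl5 (5.60%) rested on 4, 1 and 4 reads and cannot be ordered. With the length of the principal transcript, a choice made after seeing the data, the Cxcl2 share was 89.1%, 84.3% and 90.1%. Cxcl1 then made up 5.92%, 12.1% and 7.09%, and Cxcl3 made up 1.39%, 3.65% and 2.71%, over 1.5 times less than with the longest coding transcript. Only Cxcl2 differs in length between these choices (1109 against 1859 bases). As Cxcl2 was already highest, the order could not change.

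The course in time was set beside that of other strongly induced genes. Of 12335 genes with over 3 reads in each library and a mean value of at least 10, 207 exceeded their 0 h value at least 16-fold at 2 h, and of these 94 were lower at 4 h than at 2 h and 113 were higher. A value at least 2-fold lower at 4 h was found for 35 of the 207, or 16.9%, and Cxcl1 was among them. By distance over the 2 log2 differences, the genes nearest to Cxcl1 were Socs1 (0.31), an inhibitor of cytokine signalling, then Cxcl2 (0.69) and Abtb2 (0.94). The genes nearest to Cxcl2 were Tnfaip3 (0.26), which encodes the NF-κB inhibitor A20, then Abtb2 (0.44) and Socs1 (0.60). Cxcl3 did not meet the read minimum, and the genes nearest to it were Cxcl2 (0.39), the TNF-family ligand Tnfsf9 (0.52) and Cxcl1 (0.53). Cxcl5 did not meet it either. These distances describe 3 libraries and carry no test.

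**Figure D2:**
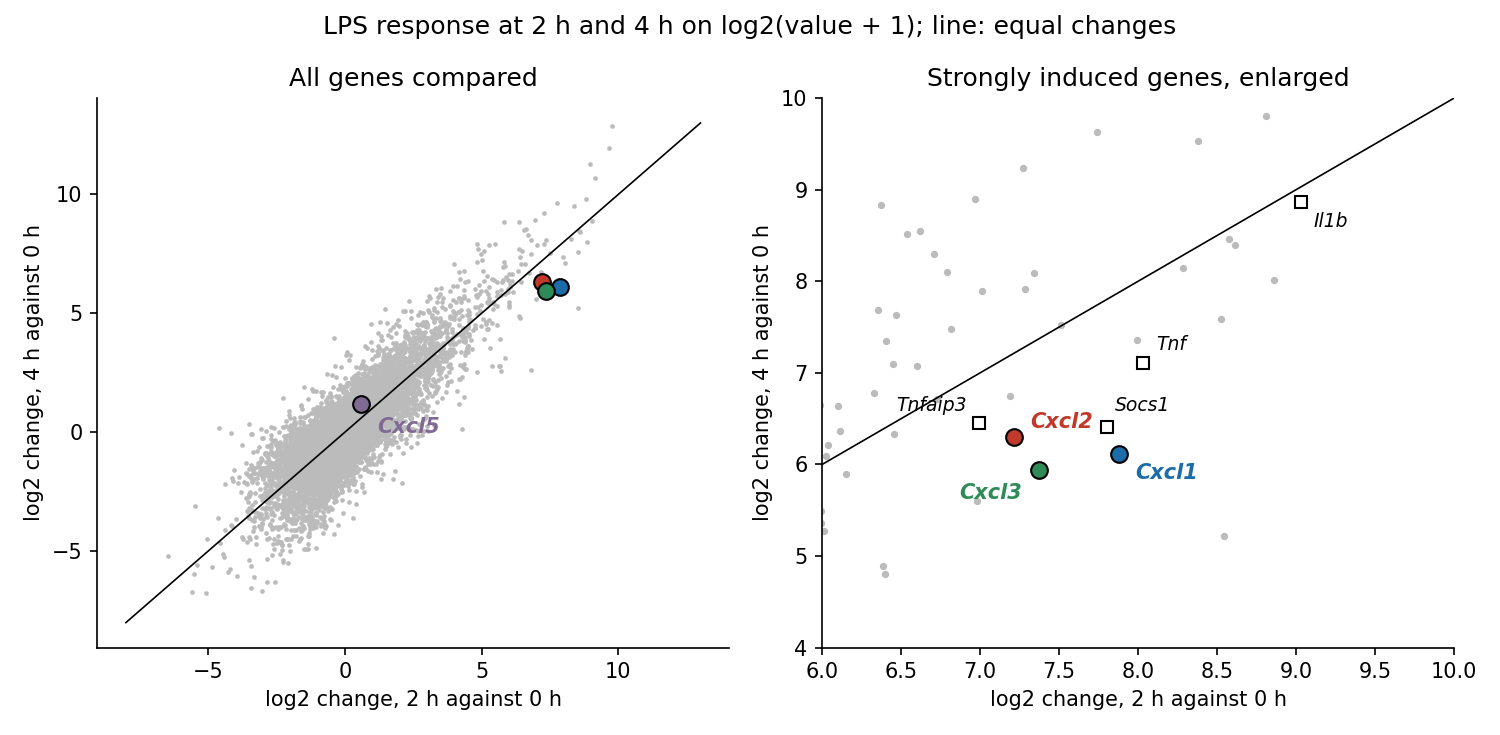
Each point is a gene, placed by its log2 difference on log2(value + 1) at 2 h against 0 h (x axis) and at 4 h against 0 h (y axis), with the line of equal differences; the right panel enlarges the strongly induced genes. Cxcl1 (7.88 and 6.11), Cxcl2 (7.21 and 6.30) and Cxcl3 (7.37 and 5.94) lie below the line beside Socs1 and Tnfaip3, and Cxcl5 (0.59 and 1.17) lies among the bulk of genes.

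In the plot of the 2 h and 4 h differences, Il1b and Tnf lie farther to the right than Cxcl2, at 9.03 and 8.03. The neighbours on the chromosome give a local view of the same response. Of the 24 genes annotated within 250000 bp of a member, 14 had 0 reads in all 3 libraries and 5 had over 3 reads in every library, namely Cxcl1, Cxcl2, Ppbp, Pf4 and Mthfd2l. Pf4, a platelet chemokine of the same cluster that lacks the glutamate-leucine-arginine motif, was at 94.4, 155 and 83.8 RPM. Ppbp, the precursor of a CXCR2 ligand best known from platelets, had 64, 12 and 117 reads, or 4.11, 1.65 and 3.58 RPM, and Cxcl15, a lung chemokine, had 0 reads in each library. Pf4 passed the 2-fold line at 2 h with a log2 difference of 1.38, and neither Pf4 (0.65) nor Ppbp (0.61) passed it at 4 h. By library totals the ratio of Pf4 at 2 h was 1.64, short of the line, that of Ppbp was 0.402, past it downward, and at 4 h both turned to values below 1, at 0.887 and 0.873. The growth-factor gene Areg had 0, 0 and 5 reads. Cxcl15 and the other genes annotated between Cxcl3 and Cxcl1 had 0 reads in each library.

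**Figure D3:**
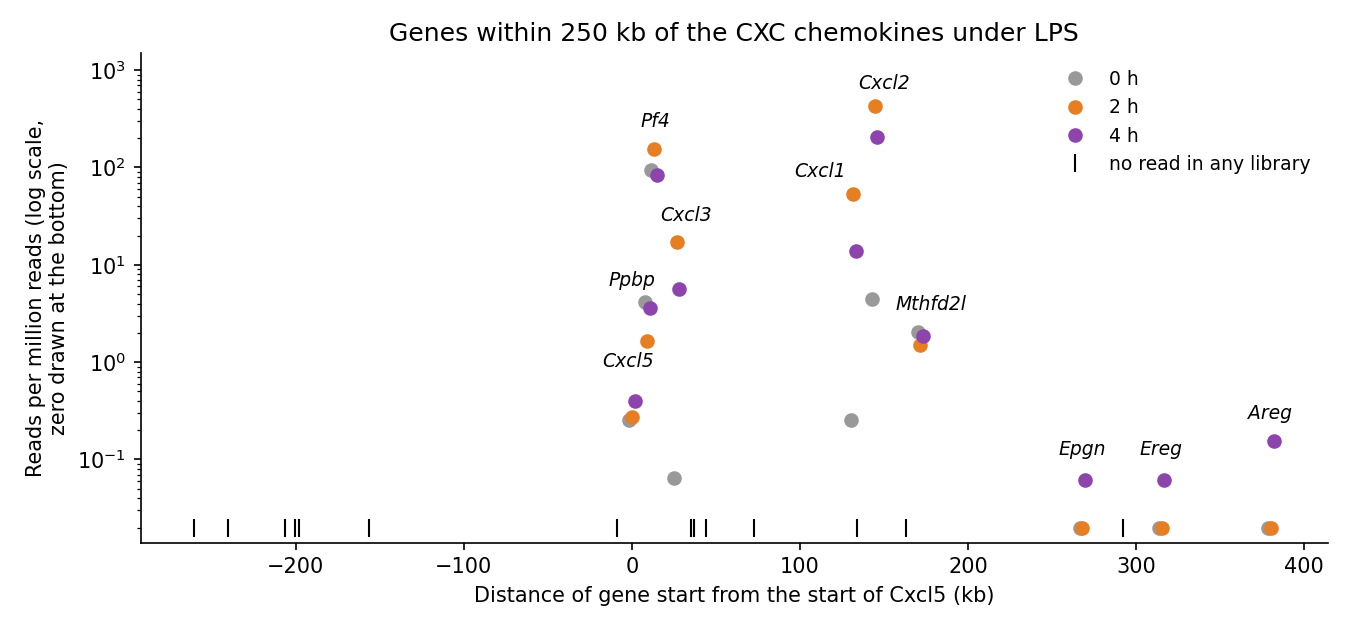
Genes within 250 kb of the chemokine genes, by the distance of the gene start from the start of Cxcl5 in kb (x axis) and by RPM at 0 h, 2 h and 4 h of LPS (y axis, log scale, zero drawn at the bottom, points of 1 gene set slightly apart). Cxcl3, Cxcl1 and Cxcl2 are the genes with a wide gap between 0 h and 2 h, and 14 genes marked by ticks have no read in any library.

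The map of the locus is drawn from RPM without division by length and so compares each gene only with itself. The receptors of these ligands were close to absent. Cxcr2 had 24, 3 and 14 reads at 0, 2 and 4 h, with a ratio at 2 h of 0.424 (0.0818 to 1.40). Cxcr1 had 0, 0 and 1 reads. The decoy receptor Ackr1 had 0 reads in all 3 libraries, with upper Wilson limits of 0.246, 0.529 and 0.118 RPM.

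Genes on the route from LPS to the chemokine genes were mostly higher as well. Of 19 genes of the TLR4 and NF-κB route, 13 passed the 2-fold line upward at 2 h and 0 downward, against 20.5% and 24.7% of all genes compared. At 4 h, 15 passed it upward and 0 downward, against 22.2% and 23.6%. The absence of genes past the line downward depended on the scaling. Tlr4, the LPS receptor, lay just inside the line at 2 h on the authors' scale, with a ratio of 0.501. By library totals 13 were upward and 2 downward at 2 h, Tlr4 (-1.66) and the kinase Irak4 (-1.13), and 13 upward and 3 downward at 4 h, Tlr4 (-1.40), Irak1 (-1.32) and Irak4 (-1.79). On that scale 13.6% of all genes were upward and 39.6% downward at 2 h, and 12.4% and 42.6% at 4 h. With TMM factors 1 of the 19 was downward at each time, against 25.7% of all genes at 2 h and 24.3% at 4 h. The largest log2 differences at 2 h were those of Tnfaip3 (6.99), the NF-κB cofactor Nfkbiz (5.25), the inhibitor Nfkbia (5.15) and Nfkb2 (3.84). From 2 h to 4 h, 2 of 19 were at least 2-fold higher, Irak3 (1.49) and Ly96 (1.07), against 17.9% of all genes, and 1 was lower, Relb (-1.18), against 15.2%. By library totals 1 was higher and 3 were lower, against 12.6% and 16.1%.

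Of 9 regulators of chemokine mRNA decay, 3 passed the 2-fold line upward and 2 downward at 2 h, against 20.5% and 24.7% of all genes compared. At 4 h, 4 passed it upward and 2 downward, against 22.2% and 23.6%, so the downward counts were near the share of all genes at both times. By library totals 3 were upward and 3 downward at 2 h, against 13.6% and 39.6% of all genes, and 2 upward and 2 downward at 4 h, against 12.4% and 42.6%, where Elavl1, which encodes an AU-rich element binding protein that stabilizes mRNA, and Traf3ip2 no longer passed upward. With each library centred on its median, 1 was downward at 2 h, against 19.3% of all genes. Zfp36, which binds AU-rich elements and speeds decay, had a log2 difference of 4.25 at 2 h and 4.18 at 4 h. Its relatives Zfp36l2 (-4.45 and -5.10) and Zfp36l1 (-1.09 and -2.89) were the genes past the line downward. Zc3h12a, the endonuclease Regnase-1, was at 3.03 and 3.09, and Traf3ip2, the adaptor Act1, at 2.18 at 2 h. From 2 h to 4 h the ratio of Zfp36 was 0.958 (0.932 to 0.985) on the authors' scale and 0.856 (0.833 to 0.881) by library totals. That of Zc3h12a was 1.05 (0.977 to 1.12) and 0.934 (0.873 to 1.00). Their part in the chemokine levels was not tested.

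Of 12 other neutrophil-acting factors made by macrophages, 8 passed the 2-fold line upward and 0 downward at 2 h, against 20.5% and 24.7% of all genes compared. At 4 h, 7 passed it upward and 0 downward, against 22.2% and 23.6%. By library totals 3 passed it downward at 4 h, namely Alox5 (-1.73), Alox5ap (-1.42) and Lta4h (-1.64), which act in leukotriene synthesis, and on that scale 42.6% of all genes did so. The upward counts at both times include 2 growth factors with 0 reads at 0 h, which reached the minimum mean only through the LPS libraries. Csf2 had 0, 2 and 4 reads, too few to show a difference, and Csf3 had 0, 37 and 383 reads. With a pseudocount of 5 the upward counts were 7 at 2 h and 6 at 4 h, against 15.0% and 16.9% of all genes. Il1b (9.03), Il1a (8.57), Ccl4 (8.28) and Tnf (8.03) had the largest log2 differences at 2 h. From 2 h to 4 h, 1 of 12 passed the line upward, the neutrophil growth factor Csf3 (1.35), and 2 passed it downward, Alox5 (a ratio of 0.477) and Lta4h (0.498), against 17.9% and 15.2% of all genes. Tnf, at -0.92, lay just inside it. The downward count was 0 with each library centred on its median (12.7% of all genes), 1 with TMM factors (14.4%) and 3 by library totals (16.1%). Neutrophil markers summed to 817, 999 and 1022 RPM at 0, 2 and 4 h. Csf3r, the receptor of Csf3, made up 127, 273 and 511 RPM of this. Without it, a choice made after seeing the data, the other 11 markers summed to 689, 726 and 511 RPM. Of the 12 markers, 6 passed the 2-fold line upward and 1 downward at 2 h, against 20.5% and 24.7% of all genes compared. At 4 h, 1 passed it upward and 2 downward, against 22.2% and 23.6%. From 2 h to 4 h, 1 passed it upward, Csf3r, and 4 downward, Retnlg (-3.28), Mpo (-1.48), Ltf (-1.47) and Elane (-1.09), against 17.9% and 15.2%, and the median of the list was -0.60. The counts at 4 h against 0 h turned with the scaling. By library totals 1 was upward and 5 downward, against 12.4% and 42.6% of all genes, and with each library centred on its median 5 were upward and 1 downward, against 29.6% and 17.0%. At 2 h library totals gave 2 upward and 2 downward, against 13.6% and 39.6%. Fibroblast markers summed to 47.7, 58.2 and 59.6 RPM. Pdgfrb, a growth factor receptor of stromal cells, made up 1.73, 12.9 and 28.9 RPM of this. Of the 7 markers, 2 passed the line upward and 0 downward at each time. Of all genes compared, 20.5% and 24.7% did so at 2 h, and 22.2% and 23.6% at 4 h. The log2 differences of Pdgfrb were 3.49 and 4.81. Platelet markers summed to 3.91, 5.92 and 7.53 RPM. At each time 2 of the 3 compared passed the line upward, against 20.5% of all genes at 2 h and 22.2% at 4 h. They were Itga2b (1.40 and 1.93) and Gp9 (1.23 and 1.72, from 2, 2 and 12 reads). By library totals 0 of the 3 platelet markers compared passed at 2 h and 2 at 4 h. Of the 7 fibroblast markers, 1 was then upward and 2 downward at 2 h, and 1 upward and 0 downward at 4 h. On that scale 13.6% of all genes were upward and 39.6% downward at 2 h, and 12.4% and 42.6% at 4 h. Macrophage markers summed to 31598, 19881 and 16727 RPM, of which Lyz2 made up 24182, 14140 and 11786 RPM. On the authors' scale 1 of the 6 compared passed the line upward at each time, Fcgr1 (1.67 and 3.48), and 0 downward. The median of the list was 0.05 at 2 h and 0.01 at 4 h. By library totals 1 was upward and 1 downward at 2 h, and 1 upward and 2 downward at 4 h. The shares of all genes on both scales are those given above. The part of these cells in the chemokine values under LPS was not tested.

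The second question was whether Shisa3 overexpression changed these transcripts without LPS. Shisa3 itself, the gene carried by the vector, stood at 7.88 and 10.85 TPM (transcripts per 1000000, a level per length) in the AAV-GFP samples. In the AAV-Shisa3 samples it stood at 12.31 and 17.81 TPM. The log2 fold change on log2(TPM + 1) was 0.63 ± 0.22 (SE), with an adjusted p of 0.138 (limma with Benjamini-Hochberg adjustment, here and below), so the groups did not overlap but the change did not pass 0.05. Reads of the vector and of the cell's own gene cannot be told apart here.

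Cxcl1, Cxcl2 and Cxcl3 were about 1.88 to 2.62 times higher on average with AAV-Shisa3 than with AAV-GFP, in both samples of the group, and Cxcl5 was barely detected in any sample. None of the 3 genes tested passed the adjusted threshold of 0.05. Of the 11218 genes tested, 2.23% passed it as higher and 4.10% as lower. With replicate numbers as a term in the fit all 3 passed, as did 424 of the 11218 genes as higher. No label ties same-numbered samples together, and that term is not in the fit reported here. Both AAV-Shisa3 samples lay above both AAV-GFP samples for 3 of the 3 tested genes, and 18.2% of all genes tested did so.

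The AAV-GFP samples held Cxcl2 at 183.45 and 219.78 TPM, and the AAV-Shisa3 samples at 307.48 and 506.33 TPM. The groups did not overlap, and the AAV-Shisa3 samples lay farther apart from each other than the AAV-GFP samples. The means were 202 ± 25.7 and 407 ± 141 TPM (SD, n = 2 each), and the log2 fold change was 0.97 ± 0.23 (SE, 95% interval 0.40 to 1.55) with a limma adjusted p of 0.0676. When only genes with at least 1 TPM in every sample were tested, the adjusted p was 0.0447, past the threshold. By level Cxcl2 was 849th and 714th among all genes with AAV-GFP and 518th and 329th with AAV-Shisa3.

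The AAV-GFP samples held Cxcl1 at 15.44 and 22.99 TPM, and the AAV-Shisa3 samples at 28.58 and 43.69 TPM. The lower AAV-Shisa3 sample stood close above the higher AAV-GFP sample. The means were 19.2 ± 5.34 and 36.1 ± 10.7 TPM (SD, n = 2 each), and the log2 fold change was 0.87 ± 0.25 (SE, 0.25 to 1.49) with a limma adjusted p of 0.0964.

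The AAV-GFP samples held Cxcl3 at 19.36 and 43.89 TPM, and the AAV-Shisa3 samples at 56.64 and 109.18 TPM. The groups did not overlap, but replicate 2 of AAV-GFP stood nearer to replicate 1 of AAV-Shisa3 than to the other AAV-GFP sample. The means were 31.6 ± 17.3 and 82.9 ± 37.2 TPM (SD, n = 2 each), and the log2 fold change was 1.40 ± 0.44 (SE, 0.32 to 2.48) with a limma adjusted p of 0.112. Among the 11218 genes tested, Cxcl3 was 35th by log2 fold change, Cxcl2 114th and Cxcl1 146th.

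The AAV-GFP samples held Cxcl5 at 0.77 and 0.66 TPM, and the AAV-Shisa3 samples at 0.40 and 0.70 TPM. The groups overlapped and the gene fell below the filter of a mean of 1 TPM. Without that filter its log2 fold change was -0.15 (-0.54 to 0.24) with a limma adjusted p of 0.617.

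**Figure D4:**
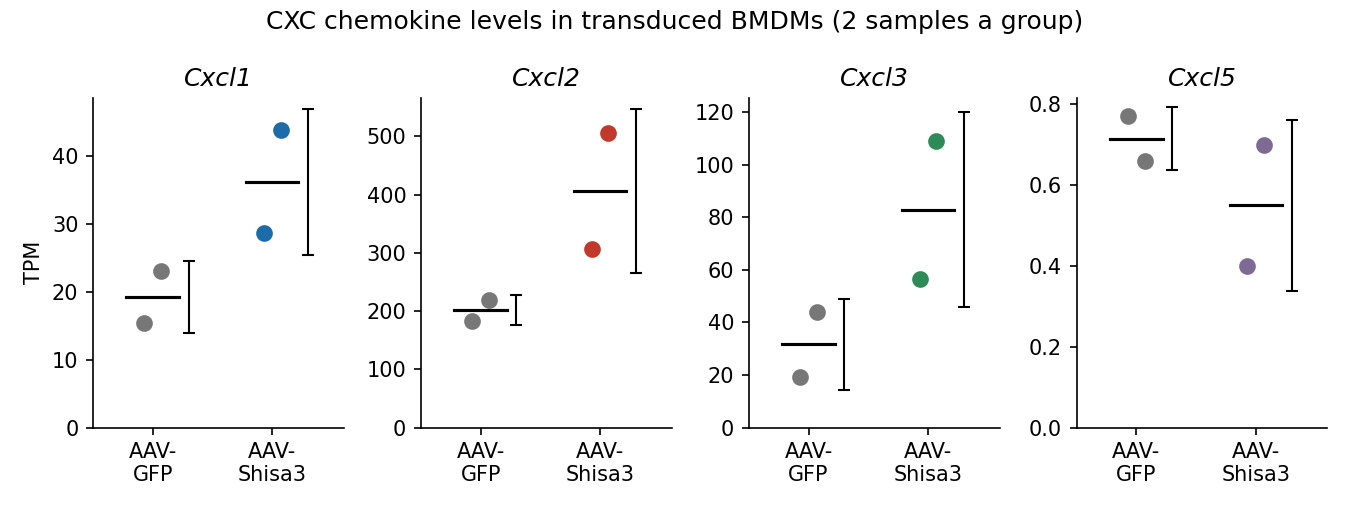
TPM of each chemokine gene in the 2 AAV-GFP samples (grey) and the 2 AAV-Shisa3 samples (colour), in panels with their own axes from 0, with a line at the group mean and a bar of 1 SD to each side. For Cxcl1, Cxcl2 and Cxcl3 both AAV-Shisa3 samples lie above both AAV-GFP samples, and for Cxcl5 they overlap.

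As the plot of TPM by sample shows, replicate 2 was the higher one within each group for Cxcl1, Cxcl2 and Cxcl3, and so it was for Shisa3. The summed level of the 4 genes came to 219.02 and 287.32 TPM for AAV-GFP, while for AAV-Shisa3 it came to 393.10 and 659.90 TPM. The ratio of the group means was 2.08, and the exact two-sided permutation test gave p = 0.333, the smallest value that 2 against 2 samples allow. Without Cxcl2 the ratio was 2.32. Leaving out 1 sample at a time, the ratio of the sums was between 1.55 (without AAV-Shisa3 replicate 2) and 2.61 (without AAV-Shisa3 replicate 1).

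Cxcl2 made up 83.8% and 76.5% of the summed TPM with AAV-GFP and 78.2% and 76.7% with AAV-Shisa3. Cxcl3 made up 8.84% and 15.3%, and 14.4% and 16.5%. Cxcl1 made up 7.05% and 8.0%, and 7.27% and 6.62%. For each of these 3 genes the shares overlapped between the groups. Cxcl5 made up 0.352% and 0.230% with AAV-GFP, and 0.102% and 0.106% with AAV-Shisa3.

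**Figure D5:**
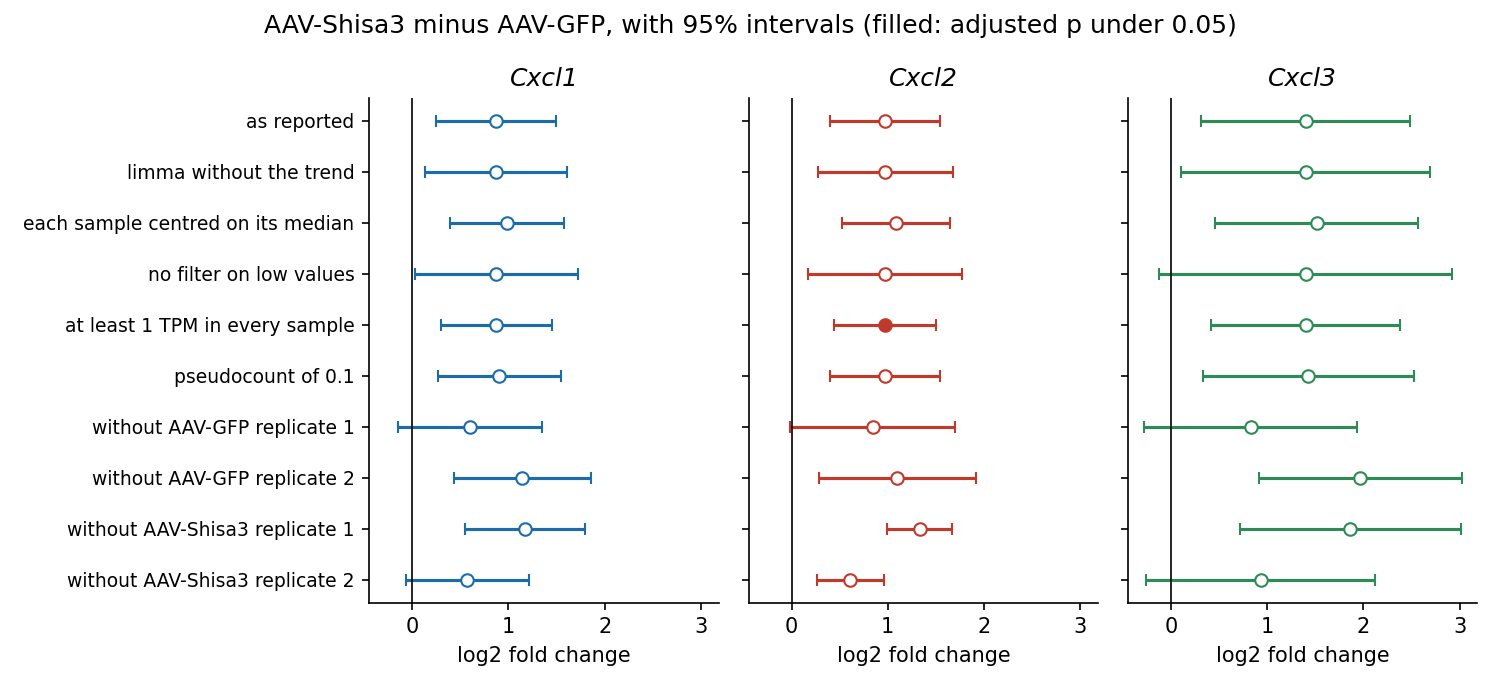
Log2 fold change on log2(TPM + pseudocount) of AAV-Shisa3 minus AAV-GFP for Cxcl1, Cxcl2 and Cxcl3, with 95% intervals from limma, as reported and under 9 other settings (the fit with replicate numbers as a term is not drawn); filled points have an adjusted p under 0.05. All points lie above 0, from 0.57 to 1.97, but some intervals cross 0, such as that of Cxcl3 with no filter (-0.13 to 2.92). Among the points drawn, the only filled one is Cxcl2 with at least 1 TPM in every sample. In the fit not drawn all 3 genes passed.

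In the plot of settings the order of the points follows the sample left out. Without AAV-Shisa3 replicate 2 the log2 fold changes were 0.57 for Cxcl1, 0.61 for Cxcl2 and 0.93 for Cxcl3, and without AAV-GFP replicate 1 they were 0.60, 0.84 and 0.83. Without AAV-Shisa3 replicate 1 they were 1.17, 1.33 and 1.87, and without AAV-GFP replicate 2 they were 1.15, 1.10 and 1.97. The direction held in each of these fits, and the range was widest for Cxcl3.

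Related ligands showed small differences. The AAV-GFP samples held Ppbp at 11.95 and 12.86 TPM and the AAV-Shisa3 samples at 16.87 and 19.24 TPM, with a log2 fold change of 0.51 (limma adjusted p = 0.0619). Pf4 was at 678 and 803 TPM, and 863 and 1111 TPM, with 0.41 (limma adjusted p = 0.141), and Cxcl15 was listed at 0 in all samples. The receptors lay below the filter, with Cxcr2 at 0.21, 0.24, 0.14 and 0.14 TPM and Ackr1 listed at 0.

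Upstream, 4 of 19 genes of the route from LPS rose (adjusted p under 0.05 in limma) and 0 fell, against 2.23% and 4.10% of all genes tested. These were Cd14, the LPS co-receptor (0.78), the NF-κB cofactor Bcl3 (0.61), Nfkb1 (0.54) and Nfkbia (0.36). The median log2 fold change of the 19 was 0.16, against -0.10 over all genes tested. Tnfaip3, nearest to Cxcl2 under LPS, was at 0.41 with a limma adjusted p of 0.0671. Both AAV-Shisa3 samples lay above both AAV-GFP samples for 10 of the 19, and below them for 6, among them Tlr4 (-0.22), Rela (-0.24) and Nfkb2 (-0.24), which did not pass. Of all genes tested, 18.2% lay above in this way and 41.2% below. These 4 calls were lost with no filter on low values, without the trend and without any 1 of the 4 samples, fits in which few or no genes of the whole table passed.

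Of the 9 genes of mRNA decay, 1 rose and 0 fell, against 2.23% and 4.10% of all genes tested. This was Zfp36, which the AAV-GFP samples held at 155.56 and 157.02 TPM and the AAV-Shisa3 samples at 261.59 and 242.00 TPM. Its log2 fold change was 0.68 with a limma adjusted p of 0.0178. Of the 2 genes past the line downward under LPS, Zfp36l2 was at -0.54 (limma adjusted p = 0.0998) and Zfp36l1 at 0.04, and neither passed. The call of Zfp36 was lost in the same fits as those of the route. Of the other neutrophil-acting factors, 11 of 12 were tested, 5 rose and 0 fell, against the same 2.23% and 4.10%. They were Il1b (1.65), the CC chemokines Ccl3 (0.92) and Ccl4 (0.88), Tnf (0.73) and Alox5ap (0.38), which acts in leukotriene synthesis. Il1a, at 1.47, had a limma adjusted p of 0.0544. The median of this list was 0.50. With no filter, without the trend and without either AAV-GFP sample 0 of these genes passed, without AAV-Shisa3 replicate 1 Ccl3 alone did, and without replicate 2 Ccl3 and Ccl4 did.

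Markers of other cells were set beside these values. Of the 12 neutrophil markers, 10 were tested. Camp and Ngp, which encode granule proteins, rose, and 0 fell, against 2.23% and 4.10% of all genes tested. Both AAV-Shisa3 samples lay above both AAV-GFP samples for 8 of the 10, against 18.2%. These 8 include Retnlg (0.21 and 0.69 TPM, then 2.03 and 1.24 TPM), which reached the mean of 1 TPM only through the AAV-Shisa3 samples. The calls of Camp and Ngp were lost with no filter, without the trend, without either AAV-GFP sample and without AAV-Shisa3 replicate 1. The summed level of the 12 markers came to 696 and 686 TPM for AAV-GFP, while for AAV-Shisa3 it came to 1206 and 800 TPM. The highest marker sum was in AAV-Shisa3 replicate 1, where S100a8 stood at 290 TPM and S100a9 at 602 TPM. S100a8 and S100a9 are in this list and in that of the neutrophil-acting factors. Macrophage markers had 0 of 7 past the threshold, and the sums of the fibroblast markers (10.3 to 17.5 TPM) overlapped between groups. Platelet markers summed to 3.52 and 3.13 TPM, and to 1.19 and 1.53 TPM. The part of these cells in the chemokine values was not tested.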

How the data were processed

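RNA-seq of BMDMs was analysed in 7 samples: 1 library each at 0, 2 and 4 h of LPS, and 2 samples each of AAV-GFP and AAV-Shisa3. In the deposited LPS table each value is a signal, namely the reads of a gene after division by a library-wide factor. All values (100%) were whole multiples of 1 step per library within a tolerance of 0.01, and these multiples were taken as the reads. In the deposited AAV table each sample sums to at least 999778, close to 1000000, and its values were taken to be TPM, a unit the header does not name, so the depth is unknown. The submitters' processing notes name the build mm9. The aligner and counter are not given in the sources used here. The files hold no coordinates, so coordinates and lengths come from GENCODE M21 (GRCm38). It held 83.8% of the LPS identifiers, version included, and 96.4% of the AAV symbols, and no position was converted between builds.

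LPS libraries were compared on log2(value + 1) where the mean value reached 1, with 2-fold as the line and no test. The AAV groups were compared with limma 3.58.1 (trended, R 4.3.3) on log2(TPM + 1) where the mean reached 1 TPM, adjusted by Benjamini-Hochberg over all genes tested, which was tested on simulated data. TMM factors came from edgeR 4.0.16 and intervals and the exact test from scipy 1.17.1. The 4 genes were named always. Other genes were the related ligands and receptors, the 2 to 4 members of each list with the largest absolute log2 fold change or a call, genes within 250000 bp, the 3 genes nearest in the LPS course, and Shisa3. The genes nearest to Cxcl5 are not reported here. Members and lists were chosen with earlier results of these data known. The alternatives covered scaling, filters, pseudocounts, the trend, a replicate block and leaving out samples. Counts over the lists were repeated under these settings after seeing the data, and list genes named because a setting moved them or because they fell outside a list's direction were chosen after their values were seen. The 2 tables were normalized separately and were not tested against each other.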

Additional observations from a re-analysis of the deposited data

How the results depend on the processing

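For Cxcl1, Cxcl2 and Cxcl3 the log2 fold change with AAV-Shisa3 stayed above 0 under all 10 alternatives. The number of members past the threshold was 0 as reported, 1 (Cxcl2) with at least 1 TPM in every sample, and 3 with the replicate block. In the block fit the limma adjusted p was 0.0138 for Cxcl1, 0.0175 for Cxcl2 and 0.00711 for Cxcl3. Of all genes, 325 of 10508 passed as higher with at least 1 TPM in every sample, and 424 of 11218 with the block. Same-numbered samples correlated at 0.188 in their deviations, but with 2 pairs and no label that ties them the samples share only a number. No member passed when a sample was left out (0 to 0), where the lone sample is assumed to vary like the other group, and the ratio of sums was 1.55 to 2.61.

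Over all AAV genes, 250 were higher and 460 lower. These numbers were 424 and 851 with the replicate block, 410 and 230 with each sample centred on its median, 1 and 4 without the trend, and 0 and 0 with no filter, where 1118 and 2411 had an unadjusted p under 0.05. Leaving out 1 sample gave 0 to 32 higher and 0 to 10 lower, with 0 and 0 without either AAV-GFP sample (620 and 1723 at an unadjusted p under 0.05 without AAV-GFP replicate 1, and 768 and 1290 without replicate 2). The cause was not tested. For LPS, library totals gave 2427 higher and 7068 lower genes at 2 h, and 2206 and 7597 at 4 h. At 4 h against 2 h, a pseudocount of 5 gave 1830 higher and 1551 lower, and a mean of at least 5 gave 2110 higher, with fewer genes tested. Low reads limit Cxcl5 and the 0 h values of Cxcl1 and Cxcl3. DESeq2 was not run because the AAV table holds no counts.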

Other observations

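The order of Cxcl1 and Cxcl3 differed between the experiments. In the AAV experiment the TPM of Cxcl3 was above that of Cxcl1 in 4 of 4 samples, at 19.36 against 15.44 and 43.89 against 22.99 with AAV-GFP and at 56.64 against 28.58 and 109.18 against 43.69 with AAV-Shisa3. In the LPS experiment Cxcl1 took the larger share of the summed level per transcript length at 2 h and 4 h, and nominally at 0 h, with 9.25% against 2.17% at 0 h, 18.3% against 5.53% at 2 h and 11.1% against 4.26% at 4 h, where the 0 h values rest on 4 reads and 1 read and cannot be ordered. With the length of the principal transcript, chosen after seeing the data, these shares were 5.92% against 1.39%, 12.1% against 3.65% and 7.09% against 2.71%. That choice changes only the length of Cxcl2, so it could not change the order of Cxcl1 and Cxcl3. The 2 tables differ in normalization, and the handling of reads that fit both Cxcl2 and Cxcl3 is not given in the sources used here, so an effect of the cells and an effect of the counting cannot be told apart.

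Under LPS, Shisa3 itself had 1, 164 and 3174 reads, or 0.0641, 22.6 and 97.2 RPM (reads per 1000000 reads) at 0, 2 and 4 h. It was thus higher at 4 h than at 2 h, whereas Cxcl1, Cxcl2 and Cxcl3 were lower.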
